A study of Mus musculus with 1078 samples.

Results

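The 9 genes described here code for proteins of the myelin sheath and of the oligodendrocytes that make it (Mbp, Mag, Mog, Mobp, Cldn11, Klk6, Tubb4a, Nfasc and Cnp). They were taken by name from the 21765 genes measured in 1078 cells. The cells came from brain tumors of the murine glioma line GL261, implanted in C57Bl/6 mice, males and females aged 6 to 8 wk. The mice received control treatment (PBS and IgG), losartan, an angiotensin receptor blocker, at 60 mg/kg/day with IgG, anti-PD1 antibody in 3 doses with PBS, or losartan+anti-PD1. Dissociated live cells were sorted as CD45-negative, CD45-positive, CD31-positive or CD3-positive, and 1 plate per sort and treatment gave 16 plates of full-length (Smart-seq2) libraries with 1 cell per well. No label names an animal, so each sort and treatment is 1 sample and no test was run. Effects of the treatment, of the plate and of the mice or the piece of brain dissociated cannot be told apart. The tumor line is a single cultured line, and whether normal brain next to the tumor was taken with it was not tested.

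Cell types are the deposited cluster labels. The label in the metadata equalled that of the sample in all 1078 cells. The 33 cells labelled oligodendrocytes were the 33 cells of cluster 9. Their levels against other cells are therefore given as a description, because the clusters had been made from the expression of these same cells. In a further metadata field the 49 cells of the losartan CD45-negative plate carry the experiment name of losartan+anti-PD1, whereas their treatment field and sample label say losartan. The latter was used. Values were scaled to 100000 per cell (TP100K). The CD45-negative and CD45-positive plates hold expected counts with totals of 3598 to 1896085 per cell (median 389298), and the CD31-positive and CD3-positive plates hold TPM, which are divided by transcript length and keep no depth, so levels were compared within a sort.

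Oligodendrocytes wrap axons of the central nervous system in many layers of membrane. Mbp and Mobp hold the cytoplasmic faces of these layers together, Cldn11 seals the sheath with tight junctions, Mag faces the axon and Mog lies on the outer surface. Cnp is an enzyme that keeps cytoplasmic channels open in the sheath, Tubb4a is a tubulin of the cell's processes, Klk6 is a secreted protease of mature oligodendrocytes, and Nfasc is an adhesion molecule that anchors the sheath next to the node in its glial form and assembles nodes in its neuronal form. Transcripts of these genes rise as precursors exit the cell cycle and differentiate under the transcription factors Olig2, Sox10 and Myrf. The Mbp locus also gives golli transcripts, which start upstream of the myelin form and are known from precursors and lymphocytes, and a value per gene holds both.

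On GRCm38 (GENCODE vM21) the genes lie at chr7:30899176-30914873 (Mag), chr17:37010743-37023398 (Mog), chr9:120149707-120181484 (Mobp), chr3:31149920-31164324 (Cldn11), chr7:43824499-43832030 (Klk6), chr17:57080066-57087782 (Tubb4a), chr1:132564690-132741797 (Nfasc) and chr11:100574904-100591729 (Cnp). Mag, Mog, Tubb4a and Nfasc are on the minus strand. Exons of Cnp overlap exons of Dnajc7 on the other strand and exons of Mobp overlap those of Gm38642 on the same strand, and the libraries do not mark strand, so reads of the overlaps cannot be assigned with certainty.

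Since the members were high together in one cell type, the 250 bases before their transcription starts were searched for the letters of known binding motifs in the RefSeq promoter table (GRCm38.p6), which held 8 of the 9 genes. The Myrf-type motif CTGGCAC (either strand) was present upstream of 2 members, Mag and Cnp, and in 4.19% of 32851 windows of the table. The Sox-type motif ACAAAG was present upstream of 4 members, Mag, Mobp, Klk6 and Cnp, and in 16.5% of all windows. The GC box GGGCGG was present upstream of 3 members and in 32.7% of windows, and the TATA box TATAAA upstream of 0 members and in 12.4% of windows. These are matches of letters and not sites of binding. A member was counted if any of its windows held the motif, and some members have more than 1 window. The percentages count single windows, so the counts of members cannot be set against them directly. The 3 windows below show the 2 members with both oligodendrocyte motifs and the member with the most copies of the Sox-type motif. Capitals mark matches to the 4 motifs on either strand, and no 2 matches overlap. The window of Mag, 1 of 3 that the table lists for this gene, is at chr7:30914864-30915113 (minus strand), that of Mobp at chr9:120149492-120149741 (plus strand) and that of Cnp at chr11:100574689-100574938 (plus strand).
Mag: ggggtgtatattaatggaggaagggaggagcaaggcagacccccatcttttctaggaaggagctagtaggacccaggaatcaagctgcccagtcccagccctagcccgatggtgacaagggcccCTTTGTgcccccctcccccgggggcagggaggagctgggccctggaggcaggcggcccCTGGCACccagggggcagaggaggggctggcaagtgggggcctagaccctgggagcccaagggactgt
Mobp: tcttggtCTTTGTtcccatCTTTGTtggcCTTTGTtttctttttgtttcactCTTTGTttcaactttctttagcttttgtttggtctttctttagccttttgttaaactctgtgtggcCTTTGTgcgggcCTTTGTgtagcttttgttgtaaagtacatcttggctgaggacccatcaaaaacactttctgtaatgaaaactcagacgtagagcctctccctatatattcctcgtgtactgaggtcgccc
Cnp: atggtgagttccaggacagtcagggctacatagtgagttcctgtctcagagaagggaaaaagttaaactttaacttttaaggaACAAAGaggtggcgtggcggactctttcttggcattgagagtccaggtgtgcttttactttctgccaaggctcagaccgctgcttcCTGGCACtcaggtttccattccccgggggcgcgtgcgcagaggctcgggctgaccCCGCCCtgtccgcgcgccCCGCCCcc
Mag was above 0 in 1.82% and Mobp in 2.58% of the 1045 cells with other labels, and Cnp in 53.2% of them. The window of Cnp holds 13 CpG dinucleotides, that of Mag 3 and that of Mobp 4, with a median of 6 over all windows.

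The oligodendrocytes were not spread evenly over the plates. The anti-PD1 CD45-negative plate held 29 of the 33, the anti-PD1 CD31-positive plate 2, the losartan and the losartan+anti-PD1 CD45-negative plates 1 each, and the control plates 0. Markers outside the 9 genes went with the label. Ermn was above 0 in 30 of the 33 cells, Opalin in 30 and Mal in 27. Defining genes of other cell types were at or near 0. Ptprc, Pecam1, Cd3e, C1qa, Gja1 and Cspg4 were above 0 in 0 of 33 cells, and Pdgfra, the receptor that marks precursors, in 1 cell (10.3 TP100K).

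On the anti-PD1 CD45-negative plate the 9 genes together took 4489 ± 1539 TP100K (SD over 29 cells, lowest 2110, median 4272, highest 7884). The single losartan cell had 4206 and the single losartan+anti-PD1 cell 3155, both inside this range. The 2 cells of the CD31-positive plate had 4159 and 5794 TP100K on the length-divided scale.

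Mbp (chr18:82475146-82585637) had 1502 ± 758 TP100K in the 29 cells (lowest 412, median 1422, highest 3454). Its reads made up 33.5% of the summed level, and 13.3% after division by length. Mobp had 90.9 ± 70.6 TP100K (lowest 0, median 78.3, highest 317). Mobp was above 0 in 26 of 29 cells, so of these 2 compaction genes only Mbp was found in every cell.

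Cldn11 had 680 ± 281.7 TP100K in the 29 cells (lowest 216.9, median 646, highest 1453). Cnp had 844 ± 312 TP100K (lowest 362, median 862, highest 1507). Both were above 0 in every cell and varied little, with coefficients of variation of 41.4% and 36.9%. Tubb4a, at 479 ± 192.7 TP100K (lowest 108.7, median 461, highest 923), varied as little (40.2%). The genes of the sheath's tight junctions, channels and tubulin were thus the steadiest of the members.

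Mag, on the membrane next to the axon, had 367 ± 227.4 TP100K (lowest 61.8, median 317, highest 1094). Mog, on the outer surface, had 140.9 ± 92.2 TP100K (lowest 9.13, median 137.9, highest 356). Both were detected in all 29 cells.

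Klk6 and Nfasc differed most between cells. Klk6 was at 0 in 11 of the 29 cells and reached 1181 TP100K in the highest (218.7 ± 282.01, median 129.5). Nfasc was above 0 in every cell, from 16.3 to 636 TP100K (165.3 ± 173.3, median 67.8). Their coefficients of variation were 128.95% and 104.8%.

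Dividing by the exonic length of each gene changes the order of the levels, and only this scale compares one gene with another. Per kb of exon, Cldn11 led with 363 ± 150.7 TP100K, followed by Cnp (232.1 ± 85.7), Tubb4a (with an SD of 86.5), Mbp (177.4 ± 89.5) and Klk6 (144.5 ± 186.4). Mag had 90.2 ± 55.8, Mog 82.7 ± 54.1, Mobp 13.3 ± 10.3 and Nfasc 11.7 ± 12.3 TP100K per kb. Neighbours in this order lay within 1 SD of each other, apart from Mog and Mobp. The length is that of all annotated exons, which is 8469 bases for Mbp, 6849 for Mobp and 14145 for Nfasc, so their levels per kb are low estimates wherever the cells use shorter forms.

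**Figure D1:**
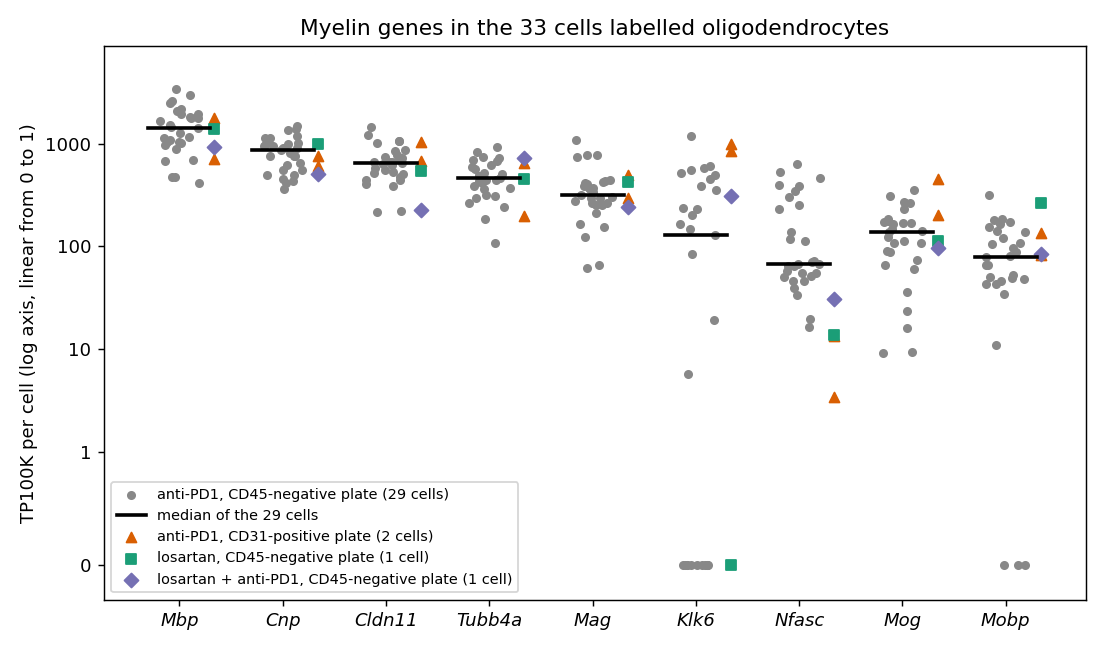
Level of each myelin gene in each of the 33 cells labelled oligodendrocytes, in TP100K on a log axis (linear from 0 to 1), with the 9 genes on the horizontal axis, grey points for the 29 cells of the anti-PD1 CD45-negative plate, bars for their medians and coloured symbols for the 4 cells of other plates. Klk6 is at 0 in 11 grey points and in the losartan cell, whereas Mbp, Cnp, Cldn11 and Tubb4a are above 100 TP100K in every cell.

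The levels of Klk6 and Nfasc ran in opposite directions across the 29 cells. Their Spearman correlation was −0.57, the lowest of the 36 pairs of members, of which 26 were above 0. The cell with the highest Nfasc (636 TP100K) had Klk6 at 0, and the cell with the highest Klk6 (1181 TP100K) had Nfasc at 51.4 TP100K. The closest pairs were Mog with Mobp (0.67) and Mbp with Cnp (0.61). All 3 cells with Mobp at 0 also had Klk6 at 0. These coefficients describe cells of 1 plate that share a scaling to the same total, and Nfasc also rose with the number of genes detected (rho = 0.53) but not with the total count (0.03).

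Genes of other lists were set against Nfasc and Klk6 in the same 29 cells, and those given here were chosen after their values were seen. Gpr17, a receptor of cells that have just committed to differentiate, was above 0 in 12 of 29 cells and had rho = 0.68 with Nfasc and −0.80 with Klk6. Tnr, a matrix protein of precursors, was above 0 in 10 cells, with 0.57 and −0.53. Sirt2, a deacetylase of myelin membranes, had 0.61 and −0.78. Transcripts known from mature oligodendrocytes ran the other way. Trf, which codes for transferrin, had rho = 0.82 with Klk6 and −0.70 with Nfasc and ranged from 7.21 to 6165 TP100K. Apod, a lipid carrier, had 0.79 and −0.67, and Car2, a carbonic anhydrase, had 0.58 and −0.63. Enpp6, an early gene of differentiation, followed neither (0.14 with Nfasc and −0.05 with Klk6).

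**Figure D2:**
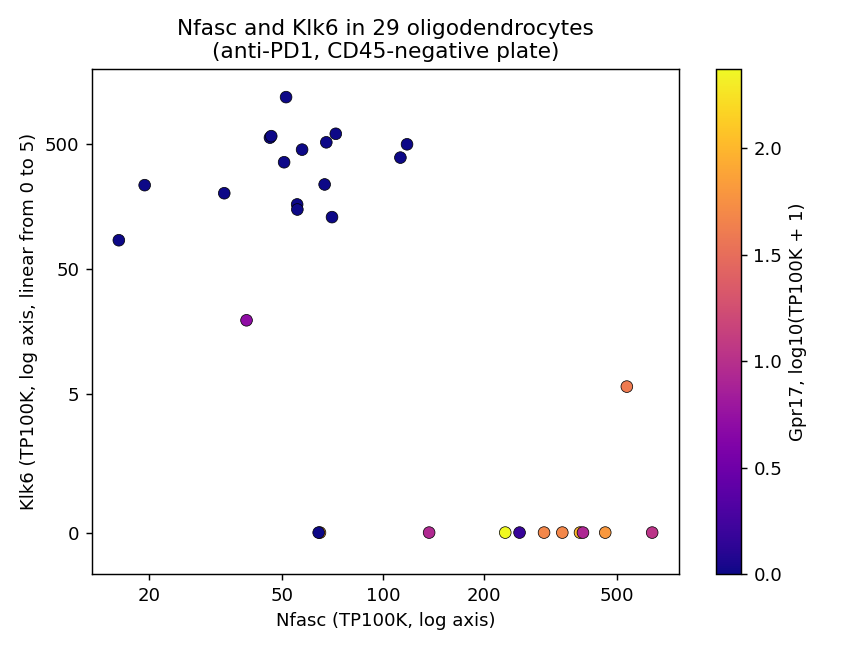
Nfasc (horizontal, TP100K, log axis) against Klk6 (vertical, TP100K, log axis, linear from 0 to 5) in the 29 oligodendrocytes of the anti-PD1 CD45-negative plate, 1 point per cell, colored by Gpr17 as log10(TP100K + 1). The points with Klk6 at 0 include the highest Nfasc (636 TP100K), and Gpr17 is brightest among them.

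The rest of the myelin program was present in the same cells. Of 31 other myelin genes of the list in the table, 30 were above 0 in at least 50% of the 29 cells, among them Trf (1968 ± 1948 TP100K), Apod (1206 ± 1685) and Car2 (382 ± 311). All 8 genes of myelin lipid synthesis were above 0 in at least 50% of cells, with Ugt8a, which makes galactosylceramide, at 169.3 ± 168.5 TP100K, Cers2, a ceramide synthase, at 91.2 ± 58.7, Aspa, which frees acetate for lipids, at 43.6 ± 54.7 and Elovl7, a fatty acid elongase, at 37.3 ± 36.1. The transcription factors Olig1 (89.3 ± 59.2), Zfp488 (87.2 ± 102.98), Sox8 (27.9 ± 20.9) and Sox10 (26.3 ± 20.9) were found in 27 to 29 cells each. Of the list of 7 partners at the paranode and node in the table, 4 were in at least 50% of cells, among them Ank3, an ankyrin (25.8 ± 24.5), Cntn1 (16.95 ± 27.1) and Sptbn1, a spectrin (14.2 ± 12.2). Of 10 precursor genes only 1, Enpp6, was above 0 in at least 50% of cells, at 66.7 ± 103.2 TP100K, and the next were Gpr17 (21.997 ± 49.1), Tnr (19.8 ± 41.2) and Vcan (4.87 ± 9.74).

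The lists of other cell types were low in these 29 cells. The summed level of 12 astrocyte genes had a median of 8.81 TP100K (0 to 35.6), with Atp1b2 (4.22 ± 8.44) first, then Slc1a3, Aldh1l1 and Gfap. The 13 neuron genes had a median of 75.3 (4.14 to 335), nearly all of it Tubb3, a tubulin (79.6 ± 69.5), while Snhg11, Syp and Camk2a had means of 1.09, 0.39 and 0.24. The 10 endothelial genes (Egfl7 first, then Kdr, Cdh5 and Cldn5) summed to at most 4.58 TP100K, the 5 pericyte genes (Abcc9 and Rgs5, with Pdgfrb and Kcnj8 at 0) to at most 2.01 and the 9 microglia genes (P2ry12, Cx3cr1 and Csf1r among them) to at most 19.5. The 6 T cell genes (Cd8a, Cd3d, with Cd3e and Cd3g at 0) summed to at most 4.32, the 4 NK genes (Eomes, with Ncr1, Klrb1c and Klre1 at 0) to at most 0.155, and the 4 B cell genes (Cd79a, Cd79b and Ms4a1 among them) were at 0 in all 29 cells.

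Over all cells of the CD45-negative sort, the genes whose level was most like that of the members, by Pearson correlation of ln(TP100K + 1) with the mean of the 9, were Tppp (r = 0.94), Aplp1 (0.94), Efnb3 (0.94), Dusp26 (0.93), Kndc1 (0.92), Slc24a2 (0.92), Kcna1 (0.92), Phyhipl (0.90), Fgfr2 (0.89) and Tspan2 (0.89), out of 13040 genes ranked. Tppp, a protein that polymerizes tubulin, was above 0 in 29 of 29 oligodendrocytes of the anti-PD1 plate (mean 133.2 TP100K) and in 5.81% of the other cells of the sort. Among the members, each against the mean of the other 8, Mag came closest (0.95) and Klk6 (0.70) and Cnp (0.79) were the least alike. The coefficients rest on the contrast of 1 cell type with the rest, and the points share plates.

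Against the 8 cells labelled malignant on the same plate, all 9 members were higher in oligodendrocytes by 2-fold or more, beside 24.1% of the 10872 genes that were above 0 in at least 10% of the cells compared (14.7% were lower). The median log2 ratio of the members was 5.52 (0.19 over all genes). The smallest were those of Cnp (3.55), Mbp (3.65) and Cldn11 (3.98), and the largest were those of Mag (8.43) and Klk6 (7.65), with means of 0.065 and 0.098 TP100K in malignant-labelled cells, each from 1 cell. The ratio of Mbp also rested on 1 malignant-labelled cell, in H12, and was 7.98 without it, and the median of the members was then 7.10. Of the lists, 30 of 31 other myelin genes, 8 of 8 lipid genes and 9 of 10 lineage factors were higher by 2-fold or more. Against the 49 malignant cells of the control CD45-negative plate, a choice made after the values were seen, the 9 members were again higher (median 6.68, beside 12.8% of 11853 genes higher and 20.6% lower), as were 6 of 10 lineage factors. These tumor cells had Olig1 at 79.2 and Sox10 at 15.8 TP100K.

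Traces of the members were common in malignant cells of every plate. Leaving the anti-PD1 plates aside, 2 or more of the 9 genes were above 0 in 76.4% of 140 malignant cells of the CD45-negative sort (exact 95% interval 68.5 to 83.2) and in 78.9% of the 33, 25 and 51 cells of the 3 plates of the CD31-positive sort (70.04 to 86.1). Their summed level was 45.99 ± 72.1 and 25.1 ± 23.4 TP100K, far under the lowest oligodendrocyte. Cnp was above 0 in 87.1% and 88.99% of these cells, Cldn11 in 42.9% and 37.6%, Tubb4a in 37.1% and 37.6%, and Mbp in 33.6% and 44.04%. Mog was above 0 in 25.7% and 26.6%. The other 4 members were rarer. Mag was above 0 in 5.71% of cells of the CD45-negative sort and in 0 cells of the CD31-positive sort, Klk6 in 2.14% and 9.17%, Mobp in 2.86% and 0.917%, and Nfasc in 0.714% and 0.917%. What part of these traces came from other cells was not tested, and the intervals cover counting error over cells only.

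The proportions between genes differed from those of oligodendrocytes. Cnp took 27.1 of the 45.99 TP100K in malignant cells of the CD45-negative sort, against 844 of 4489 in oligodendrocytes, and Mbp took 5.37 against 1502.

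The cells labelled malignant on the 2 anti-PD1 plates stood apart. There were 8 on each, with medians of 3800 and 5305 genes detected (7095 and 7188 on the control plates). Of 25 genes that were above 0 in at least 90% of malignant cells of the control CD45-negative plate and in at most 20% of the other CD45-negative cells, a list chosen after the values were seen (Timp1, Lgals1 and Axl among them), a median of 96% were above 0 in malignant cells of the losartan plate (32 to 100) and 96% in those of the losartan+anti-PD1 plate (32 to 100). In the 8 cells of the anti-PD1 plate the median was 28% (12 to 52). In the CD31-positive sort, whose cells were not used to choose the genes, the medians were 100%, 100% and 100% without anti-PD1 alone and 54% (24 to 72) with it. Of the 38 other CD45-negative cells used to choose the 25 genes, 35 were on the anti-PD1 plate, so the choice favors genes that are low on that plate and the shares are a description only. Fewer genes were detected in these cells, and the part of that in the lower shares was not tested.

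Marker lists differed from cell to cell among the 8 of the CD45-negative plate. The cell in well F3 had 11 of 13 neuron genes (summed 1859 TP100K), and that in D2 had Dcx, a protein of young neurons, at 128.4 TP100K and Gad1 at 73.8. The cell in D1 had 10 of 12 astrocyte genes (210.8). The cells in E8 and B10 had the smooth muscle genes Acta2 (1892 and 795 TP100K) and Myh11 (875 and 148.4). The cell in C1 had 6 of 10 precursor genes (684), and that in E6 had Ttr, a product of the choroid plexus, at 17247 TP100K. The cell in H12 had 14 of the 31 other myelin genes (summed 2179 TP100K), with 38183 counts and 1713 genes detected. The cells in E6 and C1 had 23 and 11 of these genes (1136 and 1066 TP100K). Malignant cells of the control CD45-negative plate reached 1218 TP100K. On the CD31-positive anti-PD1 plate the 12 astrocyte genes summed to a median of 434 TP100K (75.8 to 2408), against 8.27, 12.3 and 14.1 on the other 3 plates, and the cell in G3 had Ttr at 3973 TP100K and in the cell in C8 the 5 pericyte genes summed to 1161 TP100K. Single cells of this kind were also labelled malignant elsewhere, with pericyte sums of 863 and 1430 TP100K on the control and losartan CD45-negative plates and an astrocyte sum of 533 on the control CD31-positive plate. The 10 endothelial genes summed to 1680 TP100K in a cell of the losartan CD31-positive plate, 4 cells of the losartan+anti-PD1 CD45-negative plate had astrocyte sums of 100 TP100K or more, and the 31 other myelin genes reached 3590 in a cell of that plate, above the highest of the anti-PD1 plate (2179). Markers of other cell types in the cells named by well go against the label, but this was not so plain for all 16 cells. At least 50% of the 25 genes were above 0 in 1 of the 8 cells of the CD45-negative plate and in 5 of the 8 of the CD31-positive plate. On the latter the cell in F1 had the lowest astrocyte sum (75.8 TP100K). All 16 cells are called malignant-labelled here, and no other name is given to them.

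**Figure D3:**
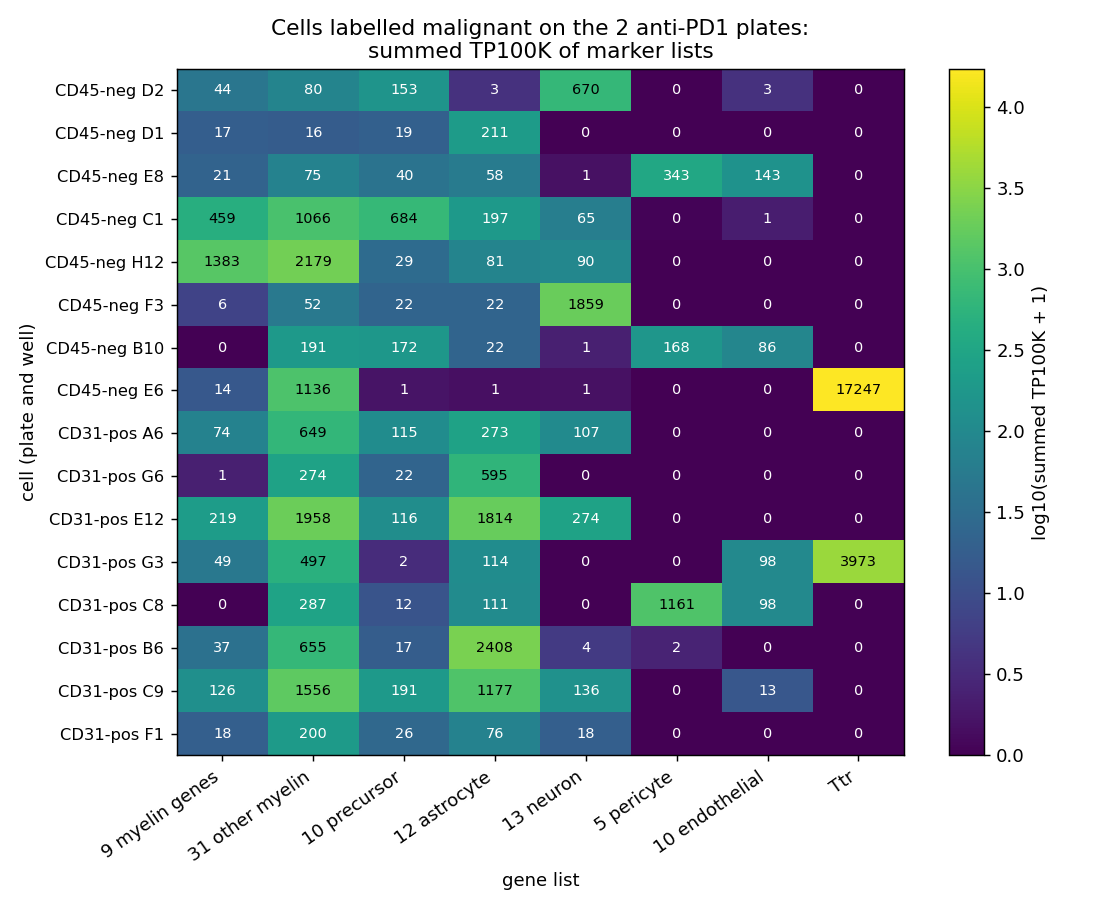
Summed TP100K of the 9 myelin genes and of marker lists, and the level of Ttr, in each of the 16 cells labelled malignant on the 2 anti-PD1 plates, 1 row per cell named by plate and well, with the value printed in each field and the color giving log10(summed TP100K + 1). High values fall in different columns from row to row, such as 1859 for neuron genes in F3, 2408 for astrocyte genes in B6 and 17247 for Ttr in E6.

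The myelin genes of these 16 cells sat in a few of them. On the CD45-negative plate the summed levels of the 8 cells were 0, 6.14, 13.9, 17.1, 21.3, 44.3, 459 and 1383 TP100K. The highest was the cell in H12, with Mbp at 917, Cnp at 312, Cldn11 at 112.6, Tubb4a at 31.4 and Mobp at 7.86 TP100K and with Mag, Mog and Klk6 at 0. The next was the cell in C1, with Cldn11 at 223.3 and Cnp at 196.1 TP100K but Mbp at 22.5. The other 6 were within the range of the control plate (0 to 372). On the CD31-positive plate the 8 cells had 0, 1.39, 17.9, 36.9, 49.2, 73.8, 125.9 and 218.6 TP100K, and the highest, in E12, had 130 TP100K of Cldn11.

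Nfasc was found more often in these cells than in other malignant cells. It was above 0 in 5 of 8 cells on the CD45-negative plate (62.5%, exact 95% interval 24.5 to 91.5) against 1 of 140 on the other 3 plates. It was above 0 in 3 of 8 on the CD31-positive plate (37.5%) against 1 cell on the other 3 plates together (0.917%). The highest levels, 15.8, 6.14 and 4.68 TP100K, were in the cells in D1, F3 and E6, which had the astrocyte genes, the neuron genes and Ttr given above and little or no Mbp (0, 0 and 3.38 TP100K). Mog was above 0 in 1 of 8 and 0 of 8 cells on the anti-PD1 plates (exact 95% intervals 0.316 to 52.7 and 0 to 36.9), which does not tell them apart from the 25.7% and 26.6% of the other plates.

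As a ratio to control, 4 of the 6 members that passed the filter were higher by 2-fold or more in malignant-labelled cells of the anti-PD1 CD45-negative plate, Mbp (log2 ratio 4.09), Cldn11 (2.63), Nfasc (2.24) and Cnp (1.55), beside 12.7% of 11576 genes, and Mog was lower (−1.53), beside 28.7%. The value of Mbp rested on the cell in H12. Without it the mean of Mbp was 4.97 against 6.05 TP100K in control (log2 ratio −0.24), Cnp had a log2 ratio of 0.61 and Cldn11 of 2.25. Nfasc kept its ratio (2.29) but was then above 0 in 8.93% of the cells compared, under the 10% of the filter, so 2 of the 9 genes, Cldn11 and Mog, were past 2-fold in place of 5. The remaining ratio of Cldn11 rested in turn on the cell in C1 (223.3 TP100K). Of the 7 cells left, only that in E6 also had Cldn11 above 0, at 1.95 TP100K. On the CD31-positive plate Cldn11 (2.89) and Tubb4a (1.09) were higher and Mog, at 0 in all 8 cells, was lower than in control (2.01 TP100K), out of 5 members that passed, beside 14.2% and 12.5% of 11441 genes. Without the cell in E12, which had the highest summed level of that plate, the log2 ratios were 1.29 for Cldn11, 0.94 for Tubb4a and 1.04 for Mbp. With losartan and with losartan+anti-PD1 0 of the members were higher by 2-fold in malignant cells of either sort, beside 1.28% and 0.635% of genes with losartan in the CD45-negative and CD31-positive sorts and 1.25% and 0.507% with the combination. The shares of genes that were lower were 0.338%, 1.23%, 1.07% and 0.796%, and 1 member, Mog, was lower, in the CD31-positive sort with losartan (log2 ratio −1.06).

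The share of cells with 2 or more of the 9 genes was not higher in the malignant-labelled cells of the anti-PD1 plates. In malignant-labelled cells it was 62.5% against 69.4% in control in the CD45-negative sort, a difference of −6.89 percentage points (Newcombe 95% interval −40.7 to 20.7), and 50% against 84.8% in the CD31-positive sort, a difference of −34.8 points (−64.6 to −2.30). The difference in the CD31-positive sort turned to 19.3 points when a gene had to reach 10 TP100K, and was 0 among cells with 2000 to 6000 genes. The part that the lower number of genes detected had in it was not tested. With losartan the share in the CD45-negative sort was 89.4%, 19.97 points above control (3.66 to 35.1). After each cell was thinned to 50000 reads the 2 shares were 71.1% and 54.2%, a difference of 16.9 points whose interval includes 0 (−2.69 to 34.8). That plate is the one whose experiment name disagrees with its label. Of 24 such differences over 8 cell groups and 3 treatments, the intervals of 4 left out 0, and 2 of these were NK cells with 2 and 5 treated cells.

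Endothelial cells on the plate with the 29 oligodendrocytes had few counts of the members. Of the 5 endothelial cells, 2 had Mbp above 0, with 1 count each (0.118 and 0.192 TP100K, or 0.008% and 0.013% of the mean of the 29), and Mag, Mog, Mobp, Cldn11 and Nfasc were at 0 in all 5. Cnp was higher, at 16.3 and 29.9 TP100K in the cells in F2 and B3, and the latter had 0 counts of the other 8 genes.

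The malignant-labelled cell in E6 was the only cell outside the oligodendrocyte label with all 9 members above 0 on this plate. Its counts were 26 for Mbp, 15 for Cldn11, 13 for Cnp, 6 for Klk6, 4 for Mag, 4 for Tubb4a, 2 for Mog, 1 for Mobp and 36 for Nfasc. Set against the mean of the 29 oligodendrocytes, 8 of these genes lay between 0.109% (Tubb4a) and 0.357% (Klk6), whereas Nfasc lay at 2.83%. The only cell of the plate labelled T cell, in F7, had Mbp at 514 TP100K, the 6 T cell genes at 0 and Mag, Mog, Mobp, Cldn11, Klk6, Nfasc and Cnp at 0, so markers go against that label too.

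Endothelial cells of the CD31-positive sort had few traces. Over the 4 plates 8 cells had 2 or more members above 0 (4.10%, exact 95% interval 1.79 to 7.92), with 6.98% of 43 in control, 3.51% of 57 with losartan, 2.53% of 79 with anti-PD1 and 6.25% of 16 with losartan+anti-PD1. Cnp was the most frequent, above 0 in 21.5% to 34.9% of cells by treatment with means of 1.46 to 5.62 TP100K. Mag, Klk6 and Tubb4a were above 0 in 0 cells, which allows a share of up to 1.54%. Cnp was the single member that passed the filter with anti-PD1, at 1.98 ± 5.21 TP100K against 2.59 ± 4.60 in control (log2 ratio −0.27), so 0 members were past 2-fold, beside 11.1% of 8817 genes higher and 6.24% lower.

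T cells of the CD3-positive sort had mainly Cnp and Mbp. Cnp was above 0 in 40.5% of control cells, 40.8% with losartan, 50% with anti-PD1 and 54.8% with losartan+anti-PD1. Its means were from 20.7 to 25.4 TP100K over the 4 treatments. Mbp was above 0 in 15.5% to 25% of cells by treatment, with means of 1.09 to 3.09 TP100K. Mag, Mog and Nfasc were above 0 in 0 of 327 cells, which allows up to 0.917%. Of the 65 T cells with Mbp, 1 had any of Mag, Mog or Mobp. The share with 2 or more members was 17.05% with anti-PD1 against 8.86% in control, a difference of 8.18 points whose interval includes 0 (−2.33 to 18.4). Mbp (2.81 ± 7.96 against 2.34 ± 8.45 TP100K) and Cnp (25.4 ± 35.8 against 24.4 ± 44.9) differed by far less than their spread between cells, and 0 members were past 2-fold, beside 5.08% of 6299 genes higher and 4.56% lower.

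Cells of the CD45-positive sort also had mainly Cnp and Mbp. Mbp was above 0 in 28.6% to 50% of microglia by treatment, with 1 cell of the control plate at 389 TP100K. Mag was above 0 in 5 of 30 microglia with losartan (16.7%) and in 1 of 28 in control, and Mog and Klk6 in 0 of 79, which allows up to 3.80%. In treatments with at least 5 cells, myeloid cells had Cnp in 54.5% to 79.4% and Mbp in 18.2% to 52.9% of cells. By the same limit B cells had Cnp in 61.5% to 91.7% of cells and Mbp in 0 of 6, 2 of 13 and 2 of 12 with control, anti-PD1 and losartan+anti-PD1. NK cells, again by this limit, had Cnp in 30.6% to 60% and Mbp in 10% to 40%. In the groups under it Cnp and Mbp were above 0 in 2 and 3 of 3 myeloid cells and in 0 and 1 of 2 NK cells with anti-PD1, and in 1 and 0 of 2 B cells with losartan. Mog was above 0 in 0 cells of each of these 4 types.

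Differences with anti-PD1 could hardly be measured in these types, since 8 microglia, 3 myeloid cells, 2 NK cells and 13 B cells were on that plate. The share with 2 or more members differed from control by −5.36 points in microglia (−25.8 to 30.6), 34.7 in myeloid cells (−15.2 to 65.6), 50 in NK cells (0.865 to 90.5) and 15.4 in B cells (−25.2 to 42.2). In microglia 0 members were past 2-fold (15.8% of 8637 genes higher, 28.3% lower). In myeloid cells Cnp was lower at 8.5 against 20.3 TP100K (33.1% of genes lower, 14% higher), and in NK cells it was at 0 in both cells against 22.6 TP100K in control (44% of genes lower, 17.8% higher). Mbp in B cells rested on 2 of 13 cells against 0 of 6 (31% of genes higher, 21.8% lower).

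With losartan and with losartan+anti-PD1 few members passed 2-fold outside malignant cells. In endothelial cells 0 did, beside 10.2% of genes higher and 5.95% lower with losartan and 11.2% and 13.9% with the combination. In T cells 0 did, beside 4.77% and 3.87%, and 3.87% and 2.84%. In microglia with losartan Mbp was lower (12.7 against 32.7 TP100K, where 1 control cell had 389) and Mag was higher (1.95 against 0.19 TP100K), beside 7.93% of genes lower and 20.6% higher. With the combination 0 did in microglia (11.8% and 24.9%). In myeloid cells 0 did with losartan (10.8% and 3.73%) or the combination (12.4% and 19.9%). In NK cells Mbp was higher at 1.63 TP100K with losartan (22.4% of genes higher, 27.8% lower) and at 5.83 with the combination (21.6% and 12.9%), against 0.028 in control, where 1 of 10 cells had it. In B cells 0 did with losartan, where 2 cells were found (19.7% and 38.6%), and with the combination Mbp rested on 2 of 12 cells (30.6% and 20%).

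**Figure D4:**
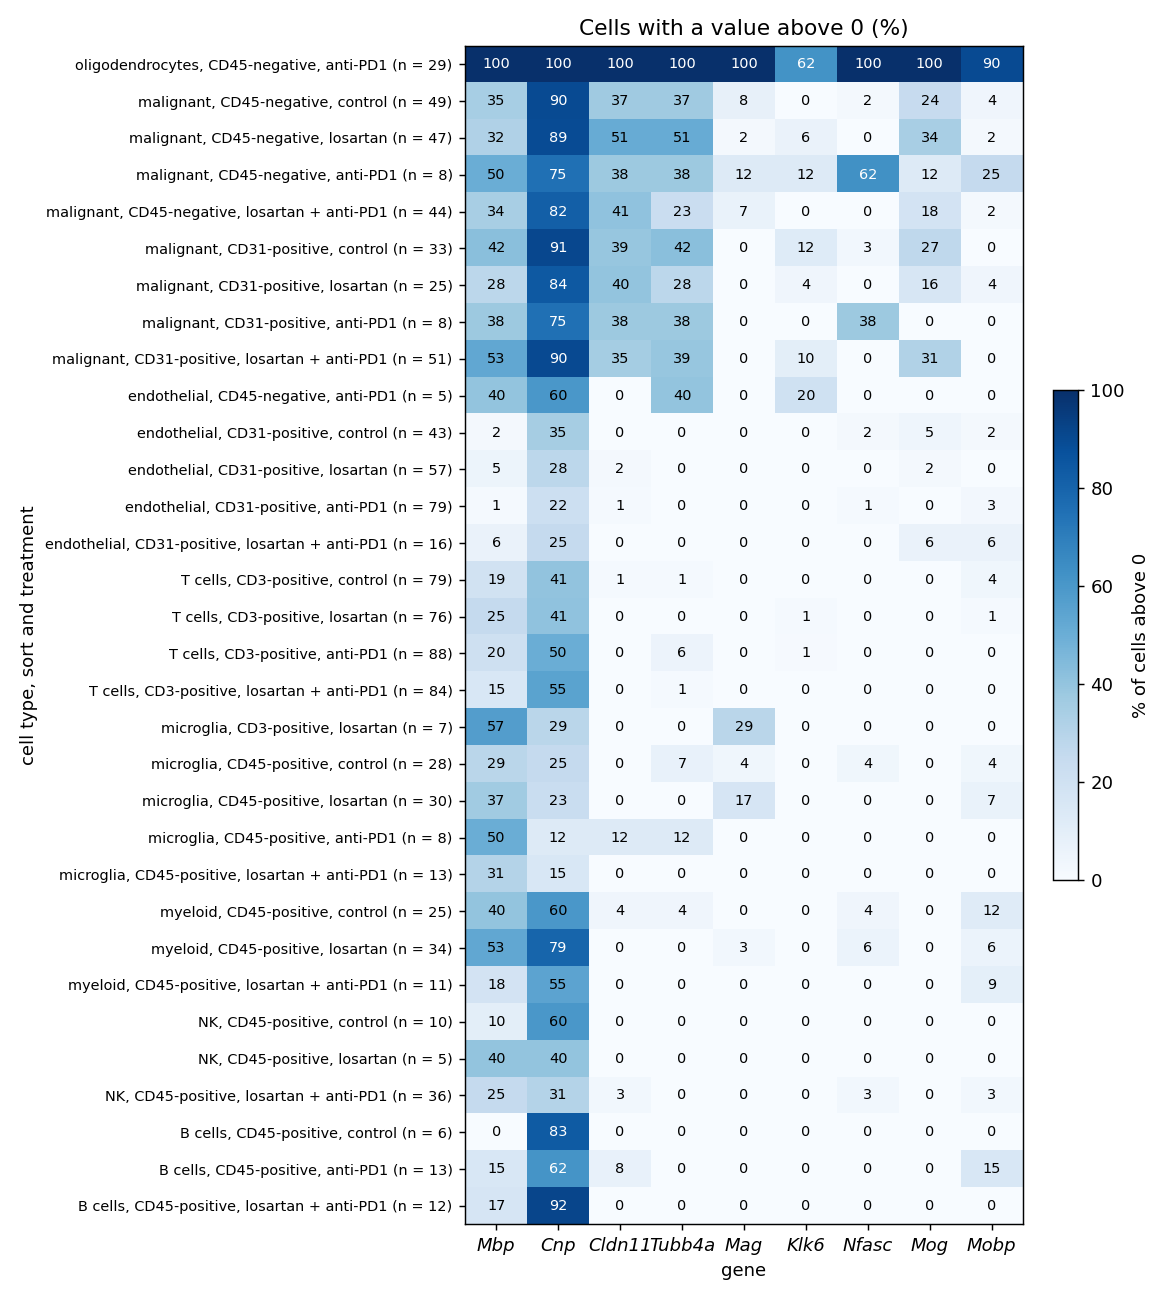
Percent of cells with a value above 0 for each of the 9 genes (columns) in each cell type, sort and treatment with at least 5 cells (rows), with the value printed in each field and darker blue for higher shares. Cnp and Mbp are filled in most rows, and Cldn11 and Tubb4a in the oligodendrocyte and malignant rows. Tubb4a is also at 40% in the 5 endothelial cells of the anti-PD1 CD45-negative plate. Mog is filled in the oligodendrocyte and malignant rows, but is at 12.5% and 0% in the 2 malignant rows of the anti-PD1 plates. Nfasc is highest in the oligodendrocyte row and these 2 malignant rows.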

How the data were processed

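Single cells of GL261 tumors were profiled on 16 plates, in 4 sorts and 4 treatments. For the CD31-positive and CD3-positive plates the deposited values are TPM, which the authors normalized for transcript length and library size. For the CD45-negative and CD45-positive plates the deposited values are expected counts (82.2% and 73.8% of values above 0 exactly whole), which are not divided by length. The submitters' notes name TopHat, Bowtie and RSEM 1.2.8. Doublets were limited by the authors' scatter gates, and no caller was run. The treatment and cell type are the labels' own. Of the other metadata columns, the cluster number and the experiment name were used to check these labels.

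Each cell was scaled to 100000 (TP100K). Ratios are log2 of group means after adding 1 TP100K, for genes detected in 10% or more of the cells of both groups together. Shares carry exact (Clopper-Pearson) and differences of shares Newcombe 95% intervals, which cover counting error over cells only, and 0 of n cells allows up to 3 of n. No animal is named, so plates are single samples and no p-value is given. The named genes are the 9 members in every group, the 4 genes of each other list with the highest mean in oligodendrocytes of the anti-PD1 CD45-negative plate and the 10 genes most like the members. Some genes that this rule covers are not reported here. Further genes, named for single cells or for their correlation within oligodendrocytes, were chosen after their values were seen. The members and lists were chosen with earlier results of these data known. Gene positions and exonic lengths came from GENCODE vM21 and promoters from RefSeq. The ratio, likeness and interval steps were tested on simulated data. Alternatives covered the detection limit, number of genes required, genes left out, thinning of expected counts to 50000 reads per cell, range of genes detected, scaling, pseudocount, filter, fold and length. Computations ran in SciPy 1.17.1 and pandas 2.3.3 under Python 3.11.15 with NumPy 2.4.6, and plots in matplotlib 3.10.9.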

Additional observations from a re-analysis of the deposited data

Results flagged for a closer look

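In 4 of the 8 groups of 4 to 10 cells the cell with the highest summed level of the 9 genes lay far above the next, by Dixon's criterion, which chance meets in about 1 of 20 groups when values are normally distributed, and more often for skewed sums such as these. Among the 8 malignant-labelled cells of the anti-PD1 CD45-negative plate the highest had 1383 TP100K and the next 459. Among the 8 microglia of the anti-PD1 CD45-positive plate the highest had 183.4 and the next 18.97 TP100K. Among the 10 NK cells of the control CD45-positive plate the highest had 88.6 and the next 45.9 TP100K. Among the 7 microglia of the losartan CD3-positive plate the highest had 33.5 and the next 14.5 TP100K.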

How the results depend on the processing

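Of the alternative values of the 24 differences in the share of cells with 2 or more members, 170 stayed inside the interval of the reported value and 13 did not or changed sign. The cause was not tested. The difference of malignant-labelled cells of the CD31-positive sort with anti-PD1 turned to 19.3 points at a limit of 10 TP100K and was 0 among cells with 2000 to 6000 genes. In NK cells with anti-PD1 it was 0 at limits of 1 and 10 TP100K and with 3 or more genes required, 100 points among cells with 2000 to 6000 genes and −20 with 1 or more genes. In NK cells with losartan it was 0 at 10 TP100K, with 3 or more genes and without Cnp, and −30 with 1 or more genes. With losartan+anti-PD1 and 1 or more genes it was 8.59 points in T cells and −20 in NK cells. The summed level of oligodendrocytes was 1330 TP100K per kb after division by exonic length and moved by less than 1 SD under the other 3 alternatives.

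The count of members past 2-fold was 9 for oligodendrocytes against either set of malignant cells under the alternatives run, except for 8 against the control plate with the 25% filter. For malignant-labelled cells with anti-PD1 it fell from 5 to 3 (CD45-negative sort) with the 25% filter, a 4-fold limit or a pseudocount of 10, and to 2 without 1 cell, and from 3 to 1 (CD31-positive sort) at 4-fold or a pseudocount of 10. Among the other groups the count moved in 26 alternatives, from 1 to 0 or 2, from 0 to 1, or, in microglia with losartan, from 2 to 1 (25% filter) or 0. The 25% filter, the 4-fold limit or a pseudocount of 10 took it to 0 for myeloid, NK and B cells, and for malignant cells of the CD31-positive sort with losartan, wherever it was 1 and moved under them. A 1.5-fold limit, a pseudocount of 0.1 or no filter raised it to 1 or 2 where it moved under them. Of 963 alternative ratios of single genes, 67 crossed the 2-fold limit, and 1 further called ratio changed sign, that of Mbp in malignant-labelled cells of the anti-PD1 CD45-negative plate against control (log2 −0.24 without the cell in H12). Thinning to 50000 reads left out 1, 2, 1 and 3 malignant cells of the CD45-negative plates and gave shares with 2 or more members of 54.2% in control, 71.1% with losartan, 42.9% with anti-PD1 and 65.9% with the combination. Depth of the TPM plates is unknown. Groups of 2 to 8 cells limit every anti-PD1 difference outside endothelial cells, T cells and B cells. No paired analysis was possible because the labels give no replicate numbers that pair cells or animals, and no test was run.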

Other observations

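High levels of some members outside the oligodendrocyte label were held by single cells. In the CD3-positive sort Klk6 reached 58.4 TP100K in 1 T cell of the anti-PD1 plate. Tubb4a reached 70.3 TP100K in another T cell of the same plate, which had 1458 genes detected. Cnp reached 516 TP100K in a malignant cell of the losartan CD45-negative plate with 1080 genes detected, and Mbp at 389 TP100K was in a control microglial cell with 1470. The highest Mag (57.2 TP100K) and Mog (63.8 TP100K) outside oligodendrocytes in the CD45-negative sort were in 2 different malignant cells of the control CD45-negative plate. Within the CD45-negative sort, 7 other cells had Mog at or above the lowest level above 0 found in its 31 oligodendrocytes, 2 cells had Mbp, 1 each had Cldn11, Cnp and Nfasc, and 0 had Mag, Mobp, Klk6 or Tubb4a.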
